A study of Mus musculus with 31 samples.

Results

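The genes described here are 9 genes of the first red blood cells of the mouse embryo, out of 18194 genes measured in the series. They are the embryonic globins Hbb-bh1, Hbb-y and Hba-x, the haem enzyme gene Alas2, the transcription factor genes Klf1, Gata1, Tal1 and Lmo2, and the erythropoietin receptor gene Epor. They were chosen by name. Each was read from the probe set annotated to its symbol alone that had the highest mean level over the 31 arrays. Hbb-bh1 and Hbb-y have 3 such probe sets each and the other 7 genes have 1 each, and no probe set is shared with another gene.

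Affymetrix arrays measured the RNA of mouse iPSCs (induced pluripotent stem cells), made from tail-tip fibroblasts of adult males with Sendai virus, and of embryoid bodies, the cell aggregates that form when such cells differentiate without added lineage factors. Embryoid bodies at day 11 gave 6 arrays of the Nos3-/- genotype and 9 of the control genotype, and undifferentiated iPSCs at day 0, grown on inactivated embryonic fibroblasts as feeder cells, gave 6 Nos3-/- and 10 control arrays. Nos3 encodes endothelial nitric oxide synthase. The Nos3-/- cells are of the strain B6.129P2-Nos3tm1unc/J and the control cells are wild type CD1, so genotype and strain cannot be told apart in any comparison between them. The labels do not say how many reprogrammed clones or separate cultures stand behind the arrays. The p-values therefore measure array-to-array spread that may be technical.

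Red cells are first made in the yolk sac, in blood islands where blood and vessel cells arise side by side from mesoderm. These primitive red cells carry embryonic haemoglobin, built from the zeta chain of Hba-x and the epsilon-y and beta-h1 chains of Hbb-y and Hbb-bh1, before definitive red cells switch to the adult globins. Tal1 and Lmo2 act early in blood and vessel precursors, Gata1 and Klf1 turn on globin and haem genes in the red cell lineage, Alas2 makes the first step of haem synthesis in red cells, and Epor carries the erythropoietin signal.

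All levels below are log2 intensities as deposited, so a difference of 1 is a doubling of signal, and each ± is the SD between arrays. The 31 arrays had medians between 6.13 and 6.23. Nos3 itself averaged 6.88 ± 0.14 in Nos3-/- embryoid bodies (n = 6) and 7.05 ± 0.21 in control embryoid bodies (n = 9). In iPSCs it averaged 6.98 ± 0.18 in Nos3-/- (n = 6) and 6.65 ± 0.24 in control (n = 10). The labels do not say where its probe set lies relative to the deleted part of the gene, and so its level cannot serve as a check of genotype. The arrays are of bulk RNA, in which fewer cells of a type and less RNA per cell cannot be told apart. Replicate 3 of the Nos3-/- embryoid bodies stood apart from its group over all genes, with a median correlation of 0.961 with the other 5 arrays, and replicate 1 of the control iPSCs with 0.983, so results that change without this pair of arrays are given with and without them.

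Embryonic globins were high in most control embryoid bodies and in 2 of 6 arrays of Nos3-/- embryoid bodies. Hbb-bh1, the beta-h1 chain on chromosome 7, had levels of 4.83, 11.43, 5.08, 4.75, 6.81 and 10.16 on the 6 Nos3-/- day 11 arrays (replicates 1 to 6). On the 9 control day 11 arrays (replicates 1 to 9) it had 7.50, 10.08, 5.73, 9.47, 10.74, 11.00, 10.79, 11.20 and 12.00. In iPSCs it ran between 4.52 and 5.23 in Nos3-/- and between 4.56 and 5.21 in control. Every control embryoid body array thus lay above the highest control iPSC array, while 3 of 6 Nos3-/- embryoid body arrays (replicates 2, 5 and 6) lay above the highest Nos3-/- iPSC array and the other 3 lay within the iPSC range. Replicates 2 and 6 of the Nos3-/- embryoid bodies lay within the control range, so the genotypes overlap.

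Hbb-y, the epsilon-y chain encoded on the same chromosome, split the arrays in the same way. Its levels were 4.72, 9.79, 4.77, 4.70, 4.76 and 9.28 in Nos3-/- embryoid bodies and 4.88, 7.43, 4.86, 9.08, 7.35, 9.64, 9.28, 9.28 and 9.32 in control embryoid bodies. In Nos3-/- iPSCs it ran between 4.48 and 4.73, and in control iPSCs between 4.42 and 5.34. Replicates 2 and 6 of the Nos3-/- embryoid bodies were high and the other 4 lay between 4.70 and 4.77, while 7 of 9 control embryoid body arrays were above every control iPSC array, with replicates 1 and 3 the exceptions.

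Hba-x, the zeta chain encoded on chromosome 11, gave 5.86, 9.11, 5.93, 5.68, 6.14 and 8.26 in Nos3-/- embryoid bodies. In control embryoid bodies it gave 6.19, 8.04, 5.79, 8.68, 8.13, 9.25, 8.75, 8.42 and 9.61. The iPSC arrays of both genotypes together spanned 5.64 to 5.98. Again Nos3-/- replicates 2 and 6 stood with the high control arrays, Nos3-/- replicate 5 and control replicate 1 lay just above the iPSC range, and control replicate 3 lay within it.

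**Figure D1:**
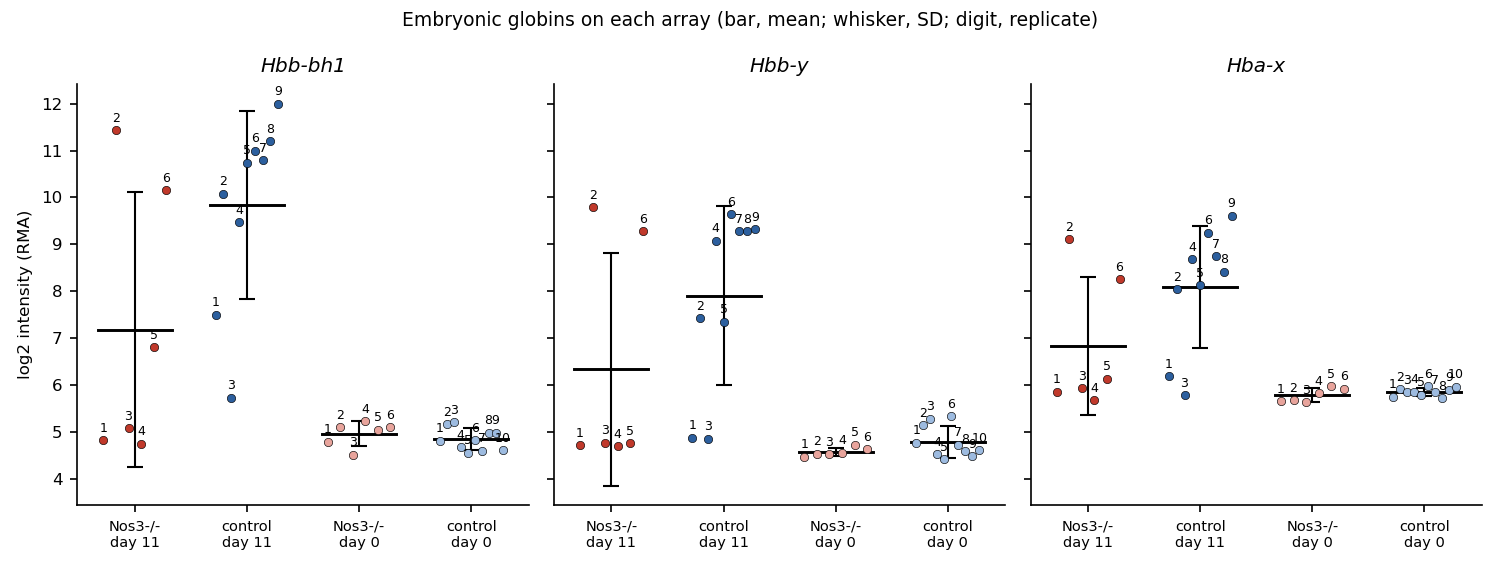
Levels of Hbb-bh1, Hbb-y and Hba-x on each array (vertical axis, log2 intensity), by genotype and day; each point is an array with its replicate number, the bar is the group mean and the whisker the SD. Nos3-/- day 11 replicates 2 and 6 lie among the high control day 11 arrays for all 3 genes, and control day 11 replicates 1 and 3 are the lowest of their group for all 3 genes.

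The 3 globins moved together from array to array. Over the 15 day 11 arrays, the deviations of Hbb-bh1 from its group means correlated with those of Hbb-y at 0.923 and with those of Hba-x at 0.951, and those of Hbb-y and Hba-x at 0.971. These are descriptions over 15 arrays, and for each pair the values come from the same RNA. They pool the control arrays with the 6 Nos3-/- arrays, whose globin levels fall into separate high and low arrays, and were not computed without them. Hbb-bh1 and Hbb-y lie in 1 gene cluster, whereas Hba-x lies in the alpha-globin cluster on another chromosome.

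The other probe sets of Hbb-bh1 gave the same split, and those of Hbb-y did so for most arrays. The 2 further probe sets of Hbb-bh1 averaged 6.60 ± 3.22 and 7.04 ± 2.88 in Nos3-/- embryoid bodies (n = 6), against 9.52 ± 2.17 and 9.64 ± 2.00 in control embryoid bodies (n = 9). The further probe sets of Hbb-y averaged 6.20 ± 3.82 and 6.14 ± 3.77 in Nos3-/- embryoid bodies, against 9.62 ± 2.27 and 9.56 ± 2.28 in control embryoid bodies. For Hbb-y, these 2 differ from the probe set used by a wider gap between high and low arrays: on one of them the Nos3-/- embryoid bodies read 3.56, 11.45, 3.50, 3.15, 4.84 and 10.69. There Nos3-/- replicate 5 lay above the highest Nos3-/- iPSC array (3.59), and control replicate 3 (6.17) just above the highest control iPSC array (6.08). On the other one, control replicate 3 (6.13) lay below the highest control iPSC array (6.26). Both further probe sets of Hbb-y carry the suffix _x_at, which marks probe sets with probes that can also match other transcripts, and one further probe set of Hbb-bh1 carries it too.

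In control cells, day 11 embryoid bodies were compared with day 0 iPSCs, which asks whether red cell genes came on as the cells differentiated. Of the 9 genes, 5 were higher and 2 lower at an adjusted p under 0.05 by limma over all genes, where 34.2% of all genes passed in either direction, 16% as higher and 18.2% as lower. The median log2 difference of the 9 genes was 0.45, beside -0.03 for all genes. Hbb-bh1 averaged 9.83 ± 2.00 in control embryoid bodies (n = 9) and 4.85 ± 0.24 in control iPSCs (n = 10), a log2 difference of 4.99 (SE 0.73, limma adjusted p = 4.07e-06) or 31.7-fold. It is the only one of the 9 genes whose control groups do not overlap, as did 6.52% of all genes in either direction.

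Hbb-y averaged 7.90 ± 1.91 in control embryoid bodies and 4.79 ± 0.34 in control iPSCs, a log2 difference of 3.11 (SE 0.66, limma adjusted p = 0.000453). Its 2 further probe sets gave 5.57 and 5.47 for the same difference. Hba-x averaged 8.10 ± 1.30 in control embryoid bodies and 5.86 ± 0.09 in control iPSCs, a difference of 2.24 (SE 0.42, limma adjusted p = 0.000101). These 3 calls held in each omission of 1 array.

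In Nos3-/- cells, 1 of the 9 genes passed between day 11 and day 0, Klf1, which was lower, where 31.1% of all genes passed in either direction and 18.1% as lower. No member's groups were free of overlap in Nos3-/- cells, against 7.83% of all genes. Hbb-bh1 averaged 7.18 ± 2.93 in Nos3-/- embryoid bodies and 4.97 ± 0.26 in Nos3-/- iPSCs (n = 6 each), a log2 difference of 2.21 (SE 0.92, 95% interval 0.33 to 4.09, limma adjusted p = 0.0674) that did not pass. Its 2 further probe sets gave 2.65 (suffix _x_at, limma adjusted p = 0.0457 over all probe sets), which passed, and 2.22 (0.0657), which did not. On the probe set used, the Hbb-bh1 difference became 2.63 with an adjusted p of 0.0359 without the 2 arrays that stood apart. Without replicate 1, 3 or 4 of the Nos3-/- embryoid bodies it passed as well, and over the 12 omissions of 1 array it ran between 1.36 and 2.70.

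Hbb-y averaged 6.34 ± 2.48 in Nos3-/- embryoid bodies and 4.58 ± 0.09 in Nos3-/- iPSCs, a difference of 1.76 (limma adjusted p = 0.105). By the exact permutation test, two-sided and unadjusted, Hbb-y gave p = 0.00649, Hbb-bh1 0.128 and Hba-x 0.0714 over 924 splits of the 12 arrays. Hba-x averaged 6.83 ± 1.47 in Nos3-/- embryoid bodies and 5.79 ± 0.15 in Nos3-/- iPSCs, a difference of 1.05 (limma adjusted p = 0.128).

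**Figure D2:**
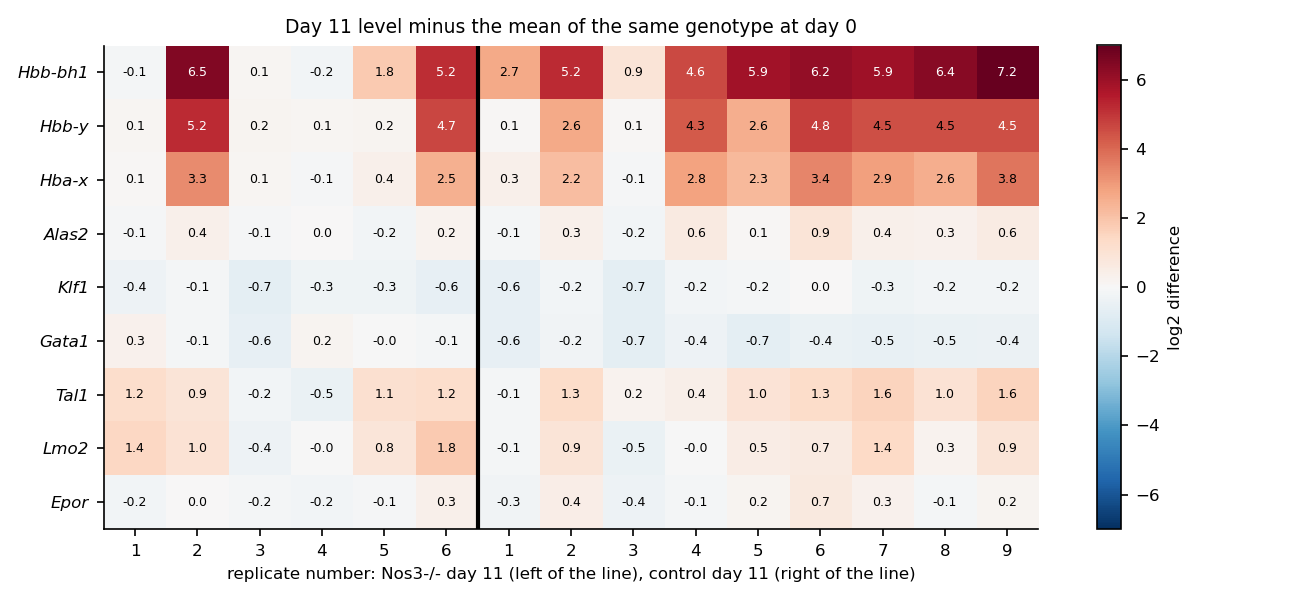
Level of each of the 9 genes on each day 11 array minus the mean of the same genotype at day 0 (colour and printed value, log2 difference), with Nos3-/- arrays left of the line and control arrays right of it. All 3 globin rows are raised on Nos3-/- replicates 2 and 6 and on control replicates 2 and 4 to 9, with paler colour for Hba-x than for Hbb-bh1. Nos3-/- replicate 5 and control replicate 1 are raised mainly in the Hbb-bh1 row. The Klf1 and Gata1 rows hold no dark cell.

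At day 11, Nos3-/- and control embryoid bodies were compared directly. Of the 9 genes, 1 passed, Hbb-bh1, where 9.7% of all genes passed in either direction and 5.29% as lower, so the count is near that of genes in general. The groups overlapped for all 9 genes, while 2.6% of all genes had groups without overlap. Hbb-bh1 averaged 7.18 ± 2.93 in Nos3-/- embryoid bodies and 9.83 ± 2.00 in control embryoid bodies, a log2 difference of -2.66 (SE 0.84, 95% interval -4.38 to -0.94, limma adjusted p = 0.0410) or 6.31-fold lower in Nos3-/-. The fit shares 1 variance per gene over the 4 groups, and the iPSC groups varied little in globin levels.

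The Hbb-bh1 call was not firm. With only the 15 day 11 arrays in the fit, Hbb-bh1 had an SE of 1.15 and a limma adjusted p of 0.192. The exact permutation test over 5005 splits of these arrays gave p = 0.0543, two-sided. Without the 2 arrays that stood apart, the difference was -2.24 (adjusted p = 0.102). Over the 15 omissions of 1 array the difference ran between -3.51 and -2.17 and the adjusted p between 0.00274 and 0.140, and the call was lost in 11 of them. It held without Nos3-/- replicate 2 or 6 or without control replicate 1 or 3, the highest Nos3-/- and the lowest control arrays. Of the 12 alternatives other than these omissions, 8 kept the call, among them array weights (-3.41, limma adjusted p = 0.00105), and 4 lost it. The further probe sets of Hbb-bh1 gave -2.92 (suffix _x_at) and -2.61 on the same arrays, with limma adjusted p of 0.0403 and 0.0447 over all probe sets.

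Hbb-y averaged 6.34 ± 2.48 in Nos3-/- embryoid bodies and 7.90 ± 1.91 in control embryoid bodies, a difference of -1.57 (SE 0.75, limma adjusted p = 0.224). Its further probe sets both gave -3.42, with adjusted p of 0.0474 and 0.0490 over all probe sets. Hba-x averaged 6.83 ± 1.47 in Nos3-/- embryoid bodies and 8.10 ± 1.30 in control embryoid bodies, a difference of -1.27 (SE 0.48, limma adjusted p = 0.0961). For Hba-x the adjusted p ran between 0.0118 and 0.251 over the omissions of 1 array, with a pass in 4 of them, and for Hbb-y between 0.0444 and 0.442, with a pass without Nos3-/- replicate 2.

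The test of whether the change over time differed between genotypes called none of the 9 genes, where limma called 1.24% of all genes, and 2 of the 9 (Hbb-bh1 and Gata1) had an unadjusted p under 0.05. For Hbb-bh1 this difference was -2.78 (SE 1.18, limma adjusted p = 0.225), for Hbb-y -1.35 (adjusted p = 0.550) and for Hba-x -1.19 (adjusted p = 0.370). A smaller rise of the globins in Nos3-/- cells was therefore not shown by this test. With array weights, the adjusted p was 0.0456 for Hbb-bh1 and 0.0226 for Gata1.

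In iPSCs at day 0, none of the 9 genes passed between Nos3-/- and control by limma, where 16.6% of all genes did, while 2 (Klf1 and Gata1) had an unadjusted p under 0.05. By the exact permutation test 1 of the 9, Klf1, had a p under 0.05 (0.0179). The groups overlapped for all 9 genes, against 1.92% of all genes without overlap. Hbb-bh1 averaged 4.97 ± 0.26 in Nos3-/- iPSCs and 4.85 ± 0.24 in control iPSCs, a difference of 0.12 (95% interval -1.56 to 1.80). That interval uses a variance shared with the embryoid body groups, which varied widely in Hbb-bh1. Its SE was 0.82, and with only the iPSC arrays in the fit it was 0.12 (limma adjusted p = 0.538).

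**Figure D3:**
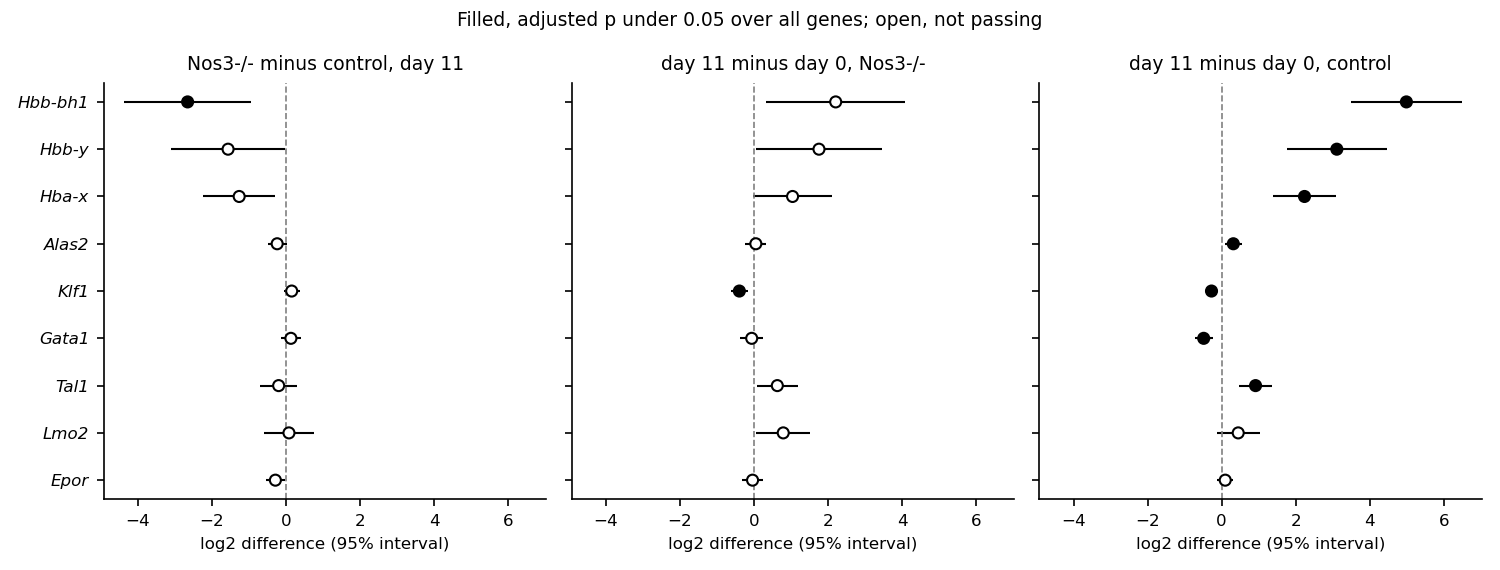
Log2 difference of each of the 9 genes (horizontal axis, with the 95% interval of the limma fit) for Nos3-/- minus control at day 11, day 11 minus day 0 in Nos3-/-, and day 11 minus day 0 in control; filled points have an adjusted p under 0.05 over all genes. In the control panel 7 points are filled, in each of the other panels 1, and the Nos3-/- minus control interval of Hbb-bh1 runs from -4.38 to -0.94.

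Alas2, the red cell form of the enzyme that starts haem synthesis, varied over a small range and followed the globins only in part. It lies in the lower tertile of mean level over all genes. Its levels were 4.92, 5.36, 4.90, 5.01, 4.78 and 5.22 in Nos3-/- embryoid bodies and 4.84, 5.30, 4.74, 5.56, 5.05, 5.86, 5.31, 5.27 and 5.51 in control embryoid bodies. The iPSC arrays spanned 4.76 to 5.22 in Nos3-/- and 4.74 to 5.28 in control. The highest Alas2 arrays, Nos3-/- replicates 2 and 6 and control replicates 4, 6 and 9, had high globins, and 1 of 6 Nos3-/- and 5 of 9 control embryoid body arrays lay above the iPSC range of their genotype. Control replicates 5 and 8 (5.05 and 5.27) lay within the control iPSC range, though Hbb-bh1 was at 10.74 and 11.20 on them. Nos3-/- replicate 5 had the lowest Alas2 level of its group, 4.78, with Hbb-bh1 at 6.81. The control difference over time was 0.31 (SE 0.11, limma adjusted p = 0.0257), and it was lost without control day 11 replicate 4, 6 or 9, with adjusted p up to 0.0640. In Nos3-/- cells the difference over time was 0.05 (adjusted p = 0.802), and between genotypes at day 11 it was -0.24 (adjusted p = 0.274).

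Klf1 and Gata1, the transcription factors that act in committed red cell precursors, were not higher at day 11. Klf1 ran between 4.97 and 5.50 (median 5.30) in Nos3-/- embryoid bodies and between 5.46 and 5.83 (median 5.64) in Nos3-/- iPSCs. In control it ran between 4.69 and 5.40 (median 5.15) in embryoid bodies and between 5.12 and 5.68 (median 5.30) in iPSCs. No embryoid body array of either genotype exceeded the highest iPSC array of its genotype. The Klf1 difference over time was -0.39 (SE 0.11, limma adjusted p = 0.0102) in Nos3-/- and -0.27 (SE 0.09, adjusted p = 0.0191) in control. With quantile normalization both calls were lost, with an adjusted p of 0.0508 in Nos3-/- and 0.0991 in control, and the control call was also lost without control day 11 replicate 3 (adjusted p = 0.0512).

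Gata1 ran between 5.65 and 6.50 (median 6.14) in Nos3-/- embryoid bodies and between 5.77 and 6.69 (median 6.24) in Nos3-/- iPSCs. In control it ran between 5.82 and 6.26 (median 6.03) in embryoid bodies and between 6.07 and 7.06 (median 6.45) in iPSCs. Gata1 fell by 0.49 over time in control (SE 0.12, limma adjusted p = 0.00187), while in Nos3-/- the difference was -0.06 (adjusted p = 0.799). The test of the difference between these gave 0.43 (SE 0.19, adjusted p = 0.247). Gata1 was the gene whose levels bore least relation to the globins, with a correlation of deviations of 0.05 with the mean of the 3 globins over the 15 day 11 arrays.

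Tal1 and Lmo2, which are shared by blood and vessel precursors, were high in a partly different set of arrays. Tal1 had 6.35, 6.06, 4.96, 4.65, 6.25 and 6.38 in Nos3-/- embryoid bodies and 4.95, 6.36, 5.28, 5.49, 6.02, 6.33, 6.64, 6.09 and 6.61 in control embryoid bodies. The iPSC arrays of both genotypes lay between 4.76 and 5.31. Tal1 was above every iPSC array of its genotype in 4 of 6 Nos3-/- and 7 of 9 control embryoid body arrays. Nos3-/- replicate 1 belonged to these with 6.35, though Hbb-bh1 (4.83), Hbb-y (4.72) and Hba-x (5.86) were at the iPSC level on that array.

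Over time Tal1 differed by 0.91 in control (SE 0.21, limma adjusted p = 0.00130) and by 0.63 in Nos3-/- (SE 0.27, adjusted p = 0.0727). Without the 2 arrays that stood apart, the Nos3-/- difference of Tal1 passed, at 0.80 (adjusted p = 0.0250). Between genotypes at day 11 Tal1 differed by -0.20 (95% interval -0.70 to 0.30, limma adjusted p = 0.726).

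Lmo2 had 9.14, 8.73, 7.35, 7.68, 8.53 and 9.53 in Nos3-/- embryoid bodies, and in control embryoid bodies its lowest, median and highest levels were 7.51, 8.50 and 9.38. In iPSCs it ran from 6.43 to 8.70 in Nos3-/- and from 7.24 to 8.76 in control. Each iPSC group thus overlapped with its embryoid bodies over most of their range. The Lmo2 difference over time was 0.79 in Nos3-/- (limma adjusted p = 0.0902) and 0.45 in control (adjusted p = 0.234), and the genotype difference at day 11 was 0.08 (95% interval -0.59 to 0.74, adjusted p = 0.931). Without the 2 arrays that stood apart, Lmo2 passed over time in Nos3-/- at 1.02 (adjusted p = 0.0288).

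Epor, the receptor for erythropoietin, ranged over 0.55 between the lowest and the highest Nos3-/- embryoid body array and over 1.03 in control embryoid bodies. It had 7.43, 7.66, 7.48, 7.47, 7.58 and 7.98 in Nos3-/- embryoid bodies and 7.52, 8.24, 7.43, 7.65, 7.97, 8.46, 8.09, 7.65 and 7.98 in control embryoid bodies. The iPSC arrays of both genotypes lay between 7.47 and 7.96. In control embryoid bodies 5 of 9 arrays lay above the iPSC range and in Nos3-/- 1 of 6, replicate 6, did. None of the Epor differences passed: -0.29 between genotypes at day 11 (limma adjusted p = 0.156), 0.10 over time in control (adjusted p = 0.527) and -0.04 over time in Nos3-/- (adjusted p = 0.871).

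**Figure D4:**
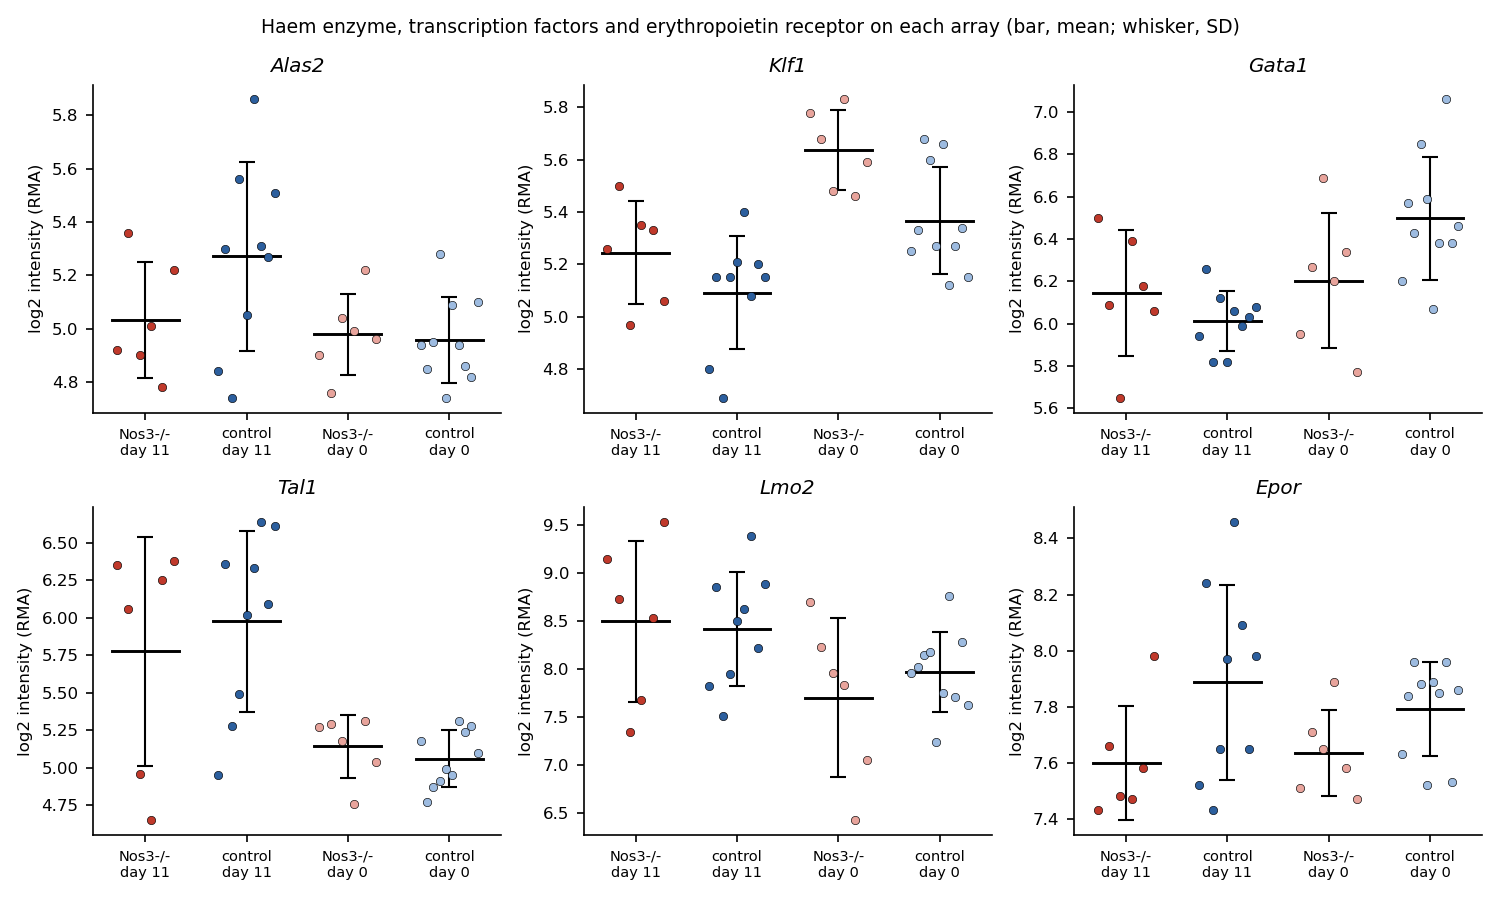
Levels of Alas2, Klf1, Gata1, Tal1, Lmo2 and Epor on each array (vertical axis, log2 intensity, scaled for each gene), by genotype and day; points are arrays, the bar is the group mean and the whisker the SD. Klf1 lies lower at day 11 than at day 0 in both genotypes, and Tal1 splits into high and low arrays in both day 11 groups.

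Promoter sequence was looked at because Hbb-y and Hba-x moved together across the embryoid bodies although they lie on different chromosomes. Alas2, on another chromosome, followed them only in part, and Klf1 encodes a factor that binds CACC boxes. A link between the motifs and the levels of these genes was not tested. Of the 9 genes, 7 matched the RefSeq promoter table (assembly GRCm38.p6), with 8 start sites, and Hbb-bh1 and Lmo2 had no entry. The GATA motif (AGATAA or TGATAA, either strand) was in the 250 bases before the start of 6 of the 7 genes, Gata1 being the exception, and in 16.6% of the 32851 windows of the table. The CACC box (CACCC, either strand) was in those of all 7 genes and in 52.0% of the windows. Counted by start site, the GATA motif was in 6 of 8 windows and the CACC box in 7 of 8. The window of a further Tal1 start site held neither. A CCAAT box (CCAAT) was found for Hbb-y and Klf1 (33.8% of the windows), a TATA box (TATAA) for Hba-x and Alas2 (22.8%), and an E-box (CANNTG) for 4 of the 7 genes (66.2%), each on either strand. These matches describe letters in a window and are not binding sites. In the 4 sequences that follow, each the 250 bases before the start and read 5′ to 3′ on the gene's strand, capitals mark GATA motifs and CACC boxes.
Hbb-y (chr7:103853208-103853457, minus strand): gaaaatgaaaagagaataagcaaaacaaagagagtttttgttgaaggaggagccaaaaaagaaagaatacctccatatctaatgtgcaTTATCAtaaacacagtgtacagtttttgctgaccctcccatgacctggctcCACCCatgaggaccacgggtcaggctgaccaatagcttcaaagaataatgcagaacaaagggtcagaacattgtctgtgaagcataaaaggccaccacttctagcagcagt
Hba-x (chr11:32276350-32276599, plus strand): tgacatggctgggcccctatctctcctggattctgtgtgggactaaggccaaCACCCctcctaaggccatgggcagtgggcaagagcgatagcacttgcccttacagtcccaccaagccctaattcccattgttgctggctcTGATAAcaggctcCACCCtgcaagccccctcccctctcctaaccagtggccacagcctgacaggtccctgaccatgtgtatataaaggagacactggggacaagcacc
Alas2 (chrX:150547167-150547416, plus strand): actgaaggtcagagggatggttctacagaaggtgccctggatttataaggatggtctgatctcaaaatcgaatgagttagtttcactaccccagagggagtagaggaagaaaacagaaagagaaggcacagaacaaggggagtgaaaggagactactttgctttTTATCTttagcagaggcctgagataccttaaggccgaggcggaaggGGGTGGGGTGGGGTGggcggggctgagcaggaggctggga
Klf1 (chr8:84901732-84901981, plus strand): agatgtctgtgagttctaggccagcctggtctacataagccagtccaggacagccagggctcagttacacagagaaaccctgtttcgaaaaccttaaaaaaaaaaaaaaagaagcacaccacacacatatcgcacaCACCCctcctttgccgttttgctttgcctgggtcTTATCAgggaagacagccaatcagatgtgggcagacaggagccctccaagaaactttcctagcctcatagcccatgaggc
In Hbb-y the GATA motif begins 162 bases and the CACC box 111 bases before the start. In Hba-x a GATA motif at 108 bases and a CACC box at 95 bases lie side by side, with a TATA box at 28 bases. Alas2 holds 3 CACC boxes within the last 40 bases and a GATA motif at 86 bases. Klf1 has its CACC box at 114 bases and its GATA motif at 80 bases.

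Within the 9 control embryoid body arrays, Hbb-bh1 was related to each of the other 8 genes and to the mean of the yolk sac list described below, 9 relations in all. With Hba-x it gave Pearson's r = 0.934 (exact permutation p = 0.00120, Benjamini-Hochberg 0.0108) and Spearman's rho = 0.817 (exact permutation p = 0.0108, Benjamini-Hochberg 0.0485). With Hbb-y it gave r = 0.876 (exact permutation p = 0.00592, Benjamini-Hochberg 0.0142) and rho = 0.870 (exact permutation p = 0.00366, Benjamini-Hochberg 0.0329). Tal1 gave r = 0.843 (exact permutation p = 0.00456, Benjamini-Hochberg 0.0142) and rho = 0.733 (exact permutation p = 0.0311, Benjamini-Hochberg 0.0934). Klf1 gave r = 0.876 (exact permutation p = 0.00633, Benjamini-Hochberg 0.0142) and rho = 0.627 (exact permutation Benjamini-Hochberg 0.143). Lmo2 (r = 0.774, rho = 0.7) and Alas2 (r = 0.726, rho = 0.550) had Benjamini-Hochberg values of 0.0187 and 0.0390 for r by the exact permutation test. Epor (r = 0.668, rho = 0.577, Benjamini-Hochberg 0.0589) and Gata1 (r = 0.446, rho = 0.318, Benjamini-Hochberg 0.257) did not pass. Without replicates 1 and 3, the arrays farthest from the Hbb-bh1 median, r over the other 7 arrays was 0.585 for Hba-x (exact permutation p = 0.165), 0.360 for Hbb-y (p = 0.419), 0.682 for Tal1 (p = 0.0976), 0.164 for Klf1 (p = 0.692), 0.387 for Lmo2 (p = 0.389) and 0.0443 for Alas2 (p = 0.922). None of these passed over 7 arrays, so the relations rest at least in part on replicates 1 and 3, and leaving out these arrays also narrows the range of Hbb-bh1. No r is given within the Nos3-/- embryoid bodies alone, whose globin levels fall into separate high and low arrays.

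Outside the globins themselves, the genes most like (predicted genes left out) the mean of the 3 globins over the 15 day 11 arrays, by correlation of deviations from the group mean, were Ifi203 at 0.904, Tubb1 at 0.900, Cyp1a1 at 0.837, Cul1 at 0.832 and Dlx5 at 0.816. Alas2 had rank 11 of 18191 genes at 0.804. Mospd1 had 0.790. Cd93 had 0.789 and was the one of the 10 leading genes with an SD near 1 in both groups, averaging 6.39 ± 1.14 in Nos3-/- and 6.45 ± 0.93 in control embryoid bodies. Tubb1 encodes the beta-tubulin of platelets and Cd93 a receptor of vessel and blood cells. Neither passed over time in control (Tubb1 0.06, limma adjusted p = 0.650, and Cd93 -0.01, adjusted p = 0.986). The other leading genes were not looked at for a link to blood, and the ranking takes the highest of 18191 correlations. Tal1 (0.654), Epor (0.651), Lmo2 (0.641) and Klf1 (0.599) were less alike.

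Genes of later red cell steps were read on the same arrays. Of the 7 entries of the adult globin list, 3 were measured (Hba-a1, Hba-a2 and Hbb-b2). Probe sets annotated to several symbols were not used, and the other entries of the list were not read. None of the 3 passed between genotypes at day 11 by limma, with 2 at an unadjusted p under 0.05, nor over time in control. Hba-a2, an adult alpha chain with a near-identical copy in Hba-a1, averaged 6.14 ± 0.34 in Nos3-/- embryoid bodies and 6.54 ± 0.35 in control embryoid bodies. In iPSCs it averaged 7.15 ± 0.30 in Nos3-/- and 6.51 ± 0.35 in control, so it was already higher in Nos3-/- at day 0, by 0.64 (limma adjusted p = 0.0104). It fell by 1.01 over time in Nos3-/- (limma adjusted p = 0.000240), and its change over time differed between genotypes by -1.04 (adjusted p = 0.0276).

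Of 22 measured genes of the red cell membrane and late maturation, none passed between genotypes at day 11 by limma, and 3 had an unadjusted p under 0.05. Over time 3 were higher and 6 lower in Nos3-/-, where 31.1% of all genes passed in either direction, and 2 were higher and 5 lower in control, where 34.2% of all genes passed. Slc2a1, the glucose transporter of red cells and many other cells, was higher by 0.72 in Nos3-/- and by 0.86 in control. Gypc, a membrane glycoprotein of red cells that other cells also make, fell by 1.75 in Nos3-/- and by 1.31 in control. Slc4a1, the red cell anion exchanger, averaged 4.39 ± 0.18 in Nos3-/- embryoid bodies and 4.47 ± 0.20 in control embryoid bodies.

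Of 16 measured genes of haem synthesis and iron handling, 1 was higher and 1 lower in Nos3-/- than in control embryoid bodies, beside 9.7% of all genes passing in either direction. Ppox, the enzyme of the step before the last in haem synthesis, was higher by 1.14 (limma adjusted p = 4.62e-08), and it was also higher by 1.06 in Nos3-/- iPSCs. Alad, the second enzyme of the pathway, was lower, with a difference of -0.75 (adjusted p = 7.20e-05). Over time 2 of the 16 were higher and 6 lower in Nos3-/- (31.1% of all genes in either direction), and 4 were higher and 4 lower in control (34.2% of all genes). Tfrc, the receptor that brings iron into cells, was higher over time by 0.54 in Nos3-/- and by 0.70 in control.

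Of 28 measured partners of the red cell transcription factors, 10 were higher and 4 lower over time in Nos3-/- (31.1% of all genes in either direction), and 9 were higher and 4 lower in control (34.2% of all genes). Zfpm1, the cofactor of Gata1, was higher by 1.00 in Nos3-/- (limma adjusted p = 0.00141) and by 1.02 in control (adjusted p = 5.17e-05). Gata2, which acts before Gata1 in blood precursors, was higher by 0.77 in Nos3-/- and by 1.32 in control. At day 11, 1 of the 28 passed between genotypes, where 9.7% of all genes did: Runx1, a factor of definitive blood formation, averaged 6.90 ± 0.61 in Nos3-/- and 7.96 ± 0.45 in control embryoid bodies (difference -1.06, adjusted p = 0.0416), and it was also lower in Nos3-/- iPSCs (log2 difference -1.17). None of the 28 differed between genotypes in its change over time by limma.

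Markers of vessel cells and their precursors, which arise beside primitive red cells, were read on the same arrays. Of 20 measured genes, 6 were higher and 0 lower over time in Nos3-/- (31.1% of all genes in either direction), and 9 were higher and 2 lower in control (34.2% of all genes). Kdr, a receptor for vascular endothelial growth factor, was higher by 1.61 in Nos3-/- (limma adjusted p = 0.00136) and by 1.87 in control (adjusted p = 8.45e-06). Cdh5, the cadherin of vessel walls, was higher by 1.86 in Nos3-/- (adjusted p = 0.000276). In control Cdh5 averaged 5.79 ± 0.83 in embryoid bodies and 4.30 ± 0.29 in iPSCs. The 2 genes lower in control were Hhex (-1.11, adjusted p = 0.0273) and Flt1 (-1.03, adjusted p = 0.00941). Between genotypes at day 11, 1 of the 20 was higher and 1 lower in Nos3-/-, beside 9.7% of all genes passing. Tal2, a relative of Tal1, was higher by 1.20 (adjusted p = 0.0459). Tek, the angiopoietin receptor, averaged 6.94 ± 0.34 in Nos3-/- and 8.21 ± 0.47 in control embryoid bodies (difference -1.27, adjusted p = 0.00135). Tek was higher over time by 2.28 in control (limma adjusted p = 5.35e-09). Its change over time differed between genotypes by -1.84 (adjusted p = 0.0110), as the 1 of the 20 genes to pass that test, where 1.24% of all genes did.

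Per array, the mean of the vessel list was 7.36, 6.99, 5.90, 6.53, 6.96 and 7.51 in Nos3-/- embryoid bodies, and in control embryoid bodies it had a lowest, median and highest value of 6.38, 7.15 and 7.32. Its 2 lowest Nos3-/- arrays, replicates 3 and 4, were low in Tal1, Lmo2 and all 3 globins. Nos3-/- replicate 1 had the second highest vessel mean of its group, 7.36, with globins at the iPSC level. In control, the 2 lowest arrays were replicates 1 and 3, with 6.38 and 6.51, which were also the lowest in Hbb-bh1.

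Markers of yolk sac endoderm, the layer that lies against the blood islands, were lower in Nos3-/- embryoid bodies: of 23 measured genes, 14 were lower and 0 higher, where 5.29% of all genes were lower, and the median log2 difference was -1.80 beside 0.00 for all genes. Afp, the main secreted protein of that layer, averaged 6.50 ± 1.03 in Nos3-/- and 10.34 ± 2.40 in control embryoid bodies (limma adjusted p = 0.000362). The list mean per array was 6.73, 7.06, 5.79, 7.06, 7.09 and 7.07 in Nos3-/- and 7.88, 7.31, 9.59, 10.70, 7.50, 6.97, 8.21, 9.87 and 8.13 in control. Within the control arrays it did not run with Hbb-bh1 (r = -0.292, exact permutation p = 0.460): replicate 3 had a list mean of 9.59 with Hbb-bh1 at 5.73, and replicate 6 had 6.97 with Hbb-bh1 at 11.00. Its part in the Hbb-bh1 difference between genotypes was not tested.

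**Figure D5:**
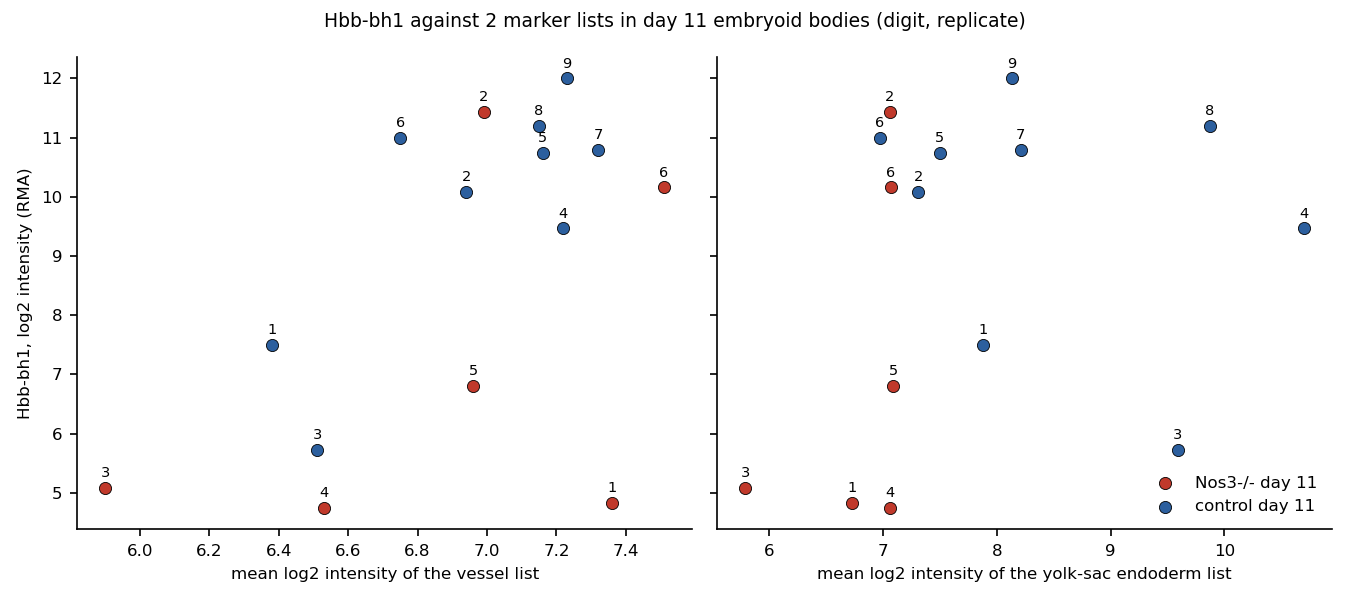
Hbb-bh1 level (vertical axis, log2 intensity) against the mean of the vessel list (left) and of the yolk sac endoderm list (right; horizontal axes, mean log2 intensity) on the 15 day 11 arrays, with replicate numbers. Nos3-/- replicate 1 pairs a vessel mean of 7.36 with an Hbb-bh1 level of 4.83, and control replicates 3 and 6 have yolk sac means of 9.59 and 6.97 with Hbb-bh1 levels of 5.73 and 11.00.

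Lists of other cell types that share red cell genes or could enter the cultures were read beside these. Of 12 measured platelet and megakaryocyte genes 1 was higher and none lower between genotypes at day 11, where 9.7% of all genes passed, and of 12 mast cell genes none passed by limma, with 0 at an unadjusted p under 0.05. The mean of the mast cell list ran between 5.11 and 5.58 in Nos3-/- and between 5.45 and 5.74 in control embryoid bodies. Macrophage and leukocyte genes were high in iPSC cultures and low in embryoid bodies: over time 16 of 18 were lower in Nos3-/- (18.1% of all genes) and 18 of 18 in control (18.2% of all genes). Lyz2, a lysozyme of macrophages, averaged 6.18 ± 0.67 in Nos3-/- and 6.59 ± 0.64 in control embryoid bodies, against 12.74 ± 0.81 in Nos3-/- iPSCs and 12.71 ± 0.81 in control iPSCs. Of 22 feeder fibroblast genes, 16 were lower and none higher over time in Nos3-/- (31.1% of all genes in either direction), and 13 were lower and 4 higher in control (34.2% of all genes). The part of these cells in the Klf1 and Gata1 differences over time was not tested.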

How the data were processed

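The 31 arrays were summarised with RMA by the authors, per the submitters' processing notes (version not given in the sources used here), and the deposited values are log2 intensities of 45101 probe sets, from 2.32 to 15.01, with 0 missing. No detection calls, batch or scan date were used here. Symbols came from the platform table: 34958 probe sets carry 1 symbol, 932 several and 9211 none. Of several probe sets annotated to 1 gene, the one with the highest mean level was used, which gave 18194 genes with no filter on dim ones, and 4 of the 9 genes (Hbb-y, Alas2, Klf1 and Tal1) lie in the lower tertile of mean level.

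The limma package 3.58.1 (R 4.3.3) fitted the 4 group means over all genes and arrays (27 residual and 2.80 prior degrees of freedom), with Benjamini-Hochberg adjustment over all genes and a threshold of 0.05. Exact permutation tests were two-sided, run in R for differences and in scipy 1.17.1 for correlations. Alternatives were quantile normalization, centring on the array median, leaving out the lower tertile, other probe set rules, array weights, a robust eBayes with trend, fits to the compared arrays alone, a replicate block, each array left out in turn and, added after seeing the data, 2 arrays left out. The fit was tested on simulated data. The genes, the 12 lists (214 of 239 entries measured) and the tests were chosen with earlier results of these data known. Beside the 9 genes and Nos3, the text names up to 2 passing genes at either end of a list, defining markers of a list, and the genes most like the globin mean. The number of arrays limits the precision. Same-numbered arrays of the groups compared did not deviate together, so the numbers were not used as pairs.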

Additional observations from a re-analysis of the deposited data

Results flagged for a closer look

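By Dixon's test at the 95% level, none of the 9 genes had a single array far from the others of its group. The test rests on the gap between the highest or lowest array and its neighbour, so arrays that stand apart together can go unmarked. Nos3-/- embryoid body replicates 2 and 6 stood apart in this way for Hbb-y (9.79 and 9.28, the others 4.70 to 4.77). Over all genes, Nos3-/- embryoid body replicate 3 had a median correlation of 0.961 with its own group, where the next lowest array had 0.988. Control iPSC replicate 1 had 0.983, where the next lowest had 0.987. The test was run on 40 sets of values, of which chance alone would mark about 2, 1 in 20. On the first of these arrays Hbb-bh1 was at 5.08, Tal1 at 4.96 and Lmo2 at 7.35, the lowest Lmo2 level of its group.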

How the results depend on the processing

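For the 9 genes no difference that passed changed sign under any alternative run, and the control rise of Hbb-bh1, Hbb-y, Hba-x and Tal1 and the control fall of Gata1 passed under all of those run for them (Hbb-y and Tal1 do not enter the one that leaves out the lower tertile). The calls that were lost are given beside their genes. Counts of all genes moved as follows. With every probe set tested, 5238 were called between genotypes at day 0, 3929 at day 11, 12872 over time in Nos3-/-, 14886 over time in control and 348 for the difference in change. Array weights gave 3939 at day 11 and 1590 for the difference in change. With only the arrays compared, 3679 were called over time in Nos3-/-. Without the 2 arrays that stand apart, chosen after seeing the data, 815 were called for the difference in change. Leaving out 1 array gave 1471 to 4142 at day 0, 1345 to 2295 at day 11, 4391 to 6092 over time in Nos3-/-, 5645 to 6274 over time in control and 88 to 745 for the difference in change. The day 0 count moved by over 1.5 times without Nos3-/- iPSC replicate 5 (1471) or 2 (2012). The difference in change did so without Nos3-/- iPSC replicate 2, 3, 5 or 6, control iPSC replicate 2 or 6, Nos3-/- embryoid body replicate 1, 2, 3 or 6, or control embryoid body replicate 8. With the replicate number as a block, the counts were 2118, 1423, 5587, 6084 and 165 in the same order. The block ended the Hbb-bh1 call at day 11 (-2.29, adjusted p = 0.0870) and gave calls over time in Nos3-/- to Hbb-bh1 (adjusted p = 0.0481) and Tal1 (0.0420). Same-numbered arrays correlated over 0.1 in 3 of 6 pairs at day 0, 2 of 6 at day 11, 2 of 6 over time in Nos3-/- and 3 of 9 over time in control, so the numbers do not pair them. Array weights gave calls between genotypes at day 11 to Hbb-y (adjusted p = 0.0332), Hba-x (0.00403) and Epor (0.0145), and at day 0 to Klf1 (0.0293) and Gata1 (0.0475). Over time in Nos3-/-, array weights gave calls to Tal1 (0.00254) and Lmo2 (0.0183), quantile normalization gave one to Tal1 (0.0358), and both also passed without Nos3-/- embryoid body replicate 3 or 4. The causes were not tested. A fit on only the arrays of the groups compared does not apply to the difference in change, which uses all 4 groups.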

Other observations

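Hbb-y showed a split among the control iPSC arrays. On the probe set used, replicates 2, 3 and 6 had Hbb-y levels of 5.15, 5.29 and 5.34, and the other 7 ran from 4.42 to 4.77. On another probe set of Hbb-y the same 3 arrays had 6.13, 6.13 and 6.26, and the other 7 ran from 2.99 to 3.52. Hbb-bh1 had 5.17, 5.21 and 4.83 and Hba-x 5.91, 5.85 and 5.98 on these 3 arrays, where the other 7 ran from 4.56 to 4.99 for Hbb-bh1 and from 5.72 to 5.97 for Hba-x. The feeder fibroblast list averaged 10.73, 10.66 and 11.04 on replicates 2, 3 and 6. It was as high on control iPSC replicates 4, 7 and 10 (10.86, 10.72 and 10.74), where Hbb-y on the probe set used was at 4.53, 4.73 and 4.62. On the remaining arrays of the group the list ran from 9.71 to 10.58. The part of feeder cells in the Hbb-y split was not tested.

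At day 11, 7 of 20 pluripotency genes were higher and none lower in Nos3-/- than in control embryoid bodies by limma, with a median log2 difference of 0.97, beside 0.00 for all genes, and 9.7% of all genes passed in either direction. Of 18 cardiomyocyte genes 1 was lower and none higher, Ryr2, the calcium release channel of heart muscle (-1.29, limma adjusted p = 0.0181). Of 22 feeder fibroblast genes 10 were lower and 1 higher, and of 18 macrophage genes none passed, with 1 at an unadjusted p under 0.05.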
